A study of Homo sapiens with 8 samples.

Results

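The transcripts of 38 enzymes and glucose carriers of central carbon metabolism were followed in a lymphoma cell line with raised FDX1, with and without the copper-carrying drug elesclomol. The members were taken by gene symbol from the 60592 rows of the deposited expression files. They comprise 2 glucose carriers, 9 enzymes of upper glycolysis, 8 of lower glycolysis, 6 of the pentose phosphate pathway and 13 of the tricarboxylic acid (TCA) cycle. Of the 38, 37 reached 1 FPKM (fragments per kilobase of transcript, scaled to the mapped fragments of the library, a level per length) in at least 2 libraries and were tested. The glucose carrier SLC2A3 did not, with values between 0.0361 and 0.278 FPKM.

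WSU-DLCL2 is a long-established line of human lymphoma cells of the diffuse large B-cell kind. Control cells, labelled WT for genotype, and cells overexpressing FDX1 (FDX1-OE) were each grown for 48 h with 15 nM elesclomol (ES) or with its solvent DMSO. Each of the 4 groups has 2 libraries of total RNA. The labels do not name the vector, the control construct or whether the overexpressing line is 1 clone. Nothing in them says that the 2 libraries in each group are separate cultures, so a p-value here weighs a difference against the spread of these samples alone, and that spread may be technical.

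Glycolysis splits glucose into pyruvate in the cytosol and yields ATP and NADH, and lactate dehydrogenase returns NADH to NAD by making lactate. The pentose phosphate pathway branches from glucose 6-phosphate and supplies NADPH and ribose for nucleotides. The TCA cycle burns acetyl groups in mitochondria, and its 2-oxoglutarate dehydrogenase, like pyruvate dehydrogenase ahead of the cycle, carries lipoic acid. FDX1 is a mitochondrial ferredoxin that takes part in lipoylation and reduces the copper brought in by elesclomol. Proliferating B-cell lymphomas usually express glycolytic enzymes strongly, and MYC and HIF1A are known activators of many of these genes.

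The promoter sequences below are shown because they belong to 3 glycolytic genes whose transcripts fell under ES in FDX1-OE cells (PGK1, LDHA, ENO1) and to the 1 glycolytic gene whose transcript rose (ENO2). Each is the 250 bases before an annotated transcription start in RefSeq (build GRCh38.p14), written on the gene's own strand from 5′ to 3′. Capitals mark ACGTG, the core of the hypoxia response element bound by HIF factors, or its reverse complement.
PGK1 (chrX:78103998-78104247, plus strand): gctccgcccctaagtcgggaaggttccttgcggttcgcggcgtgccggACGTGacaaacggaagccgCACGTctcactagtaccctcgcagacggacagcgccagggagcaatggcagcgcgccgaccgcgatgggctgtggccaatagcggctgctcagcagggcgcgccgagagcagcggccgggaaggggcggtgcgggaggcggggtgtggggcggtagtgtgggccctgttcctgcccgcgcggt
LDHA, first of 2 starts (chr11:18394313-18394562, plus strand): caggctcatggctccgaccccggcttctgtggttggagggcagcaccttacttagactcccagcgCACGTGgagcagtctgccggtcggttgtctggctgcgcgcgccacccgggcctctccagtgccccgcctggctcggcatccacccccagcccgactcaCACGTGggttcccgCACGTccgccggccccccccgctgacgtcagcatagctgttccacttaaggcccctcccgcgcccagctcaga
ENO1 (chr1:8878687-8878936, minus strand): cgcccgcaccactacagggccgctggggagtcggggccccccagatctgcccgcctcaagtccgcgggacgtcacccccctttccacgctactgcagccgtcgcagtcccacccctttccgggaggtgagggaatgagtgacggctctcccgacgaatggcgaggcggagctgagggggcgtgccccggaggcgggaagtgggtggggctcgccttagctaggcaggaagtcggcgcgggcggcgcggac
ENO2 (chr12:6914330-6914579, plus strand): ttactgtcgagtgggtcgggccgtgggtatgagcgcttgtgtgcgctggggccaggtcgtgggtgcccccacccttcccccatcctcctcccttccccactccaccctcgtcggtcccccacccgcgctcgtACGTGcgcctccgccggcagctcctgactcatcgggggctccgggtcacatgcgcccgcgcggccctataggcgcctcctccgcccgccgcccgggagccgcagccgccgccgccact

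The PGK1 window held 2 such stretches, the LDHA window 3, the ENO2 window 1 and the ENO1 window 0. In LDHA, 2 of the 3 lie within CACGTG, the E-box read by MYC and related factors, and the window of its other start held none. RefSeq promoters were found for 36 members, with 58 starts. ACGTG on either strand occurred in 29.3% of those 58 windows, against 22.9% of the windows of all tested genes and 18.5% of all windows in the table. CACGTG, each copy of which also holds ACGTG, occurred in 8.62% of the members' windows and 8.49% of those of tested genes. The antioxidant response core TGACNNNGC occurred in 15.5% and 12.1%. Among the 42 windows of the 21 members that fell, the shares were 31% for the HIF core, 11.9% for the E-box and 9.52% for the antioxidant core. Among the 16 windows of other tested members they were 25%, 0% and 31.2%. Each start counts as 1 window, and windows of a gene can overlap. Genes with many starts, such as HK1 and PFKM with 7 each among the members that fell, therefore weigh more in these shares. These are matches of letters and are given as a description.

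FDX1 itself, the check of the labels, stood at 9.88 to 10.8 FPKM in the 4 control libraries and at 56.0 to 60.7 FPKM in the 4 FDX1-OE libraries. The FDX1-OE ES libraries stood apart from the other 6. Their FPKM values summed to 408018 and 403024 against 445716 to 451027 elsewhere, and 11868 and 12047 genes reached 1 FPKM against 10815 to 11320. Mitochondrially encoded mRNA made up 14.7% and 11.9% of their FPKM against 16.9% to 17.6%. The median absolute log2 difference between the 2 libraries was 0.16 over tested genes in that group and 0.07 to 0.09 in the others. All 7 B-cell markers were present, with summed levels of 1565 to 1641 FPKM over the 8 libraries. All 10 T and NK cell markers stayed below 1 FPKM with 6 at 0 everywhere, and their sum was 0.897 and 0.932 FPKM in the FDX1-OE ES libraries against 0.0243 to 0.17 in the other 6. In each of the myeloid and the epithelial or fibroblast lists 7 of 8 markers stayed below 1 FPKM. Their sums were 1.62 to 4.97 and 0.978 to 1.78 FPKM. Read totals are unknown because only FPKM was used, so no counting interval is given.

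ES against DMSO in FDX1-OE cells was the comparison in which most members moved. With 37 members tested, 21 fell and 4 rose at an adjusted p below 0.05 (limma on log2 of FPKM + 1, 8 libraries, Benjamini-Hochberg over 12063 genes). Over all tested genes 13.7% fell and 47.1% rose, 60.8% together. The members' median log2 fold change was −0.23, against 0.25 over all tested genes. Falling members took in 8 of 9 in upper glycolysis, 7 of 8 in lower glycolysis, 2 of 6 in the pentose phosphate pathway, 3 of 13 in the TCA cycle and the glucose carrier SLC2A1. The 4 that rose were the enolase ENO2 and the mitochondrial TCA enzymes IDH2, SUCLA2 and SUCLG2. The 2 ES libraries lay wholly below the 2 DMSO libraries for 27 members and wholly above for 5, against 20.1% and 58.9% of all tested genes. In a bulk sample, fewer cells that express a gene and less of its RNA per cell cannot be told apart.

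**Figure D1:**
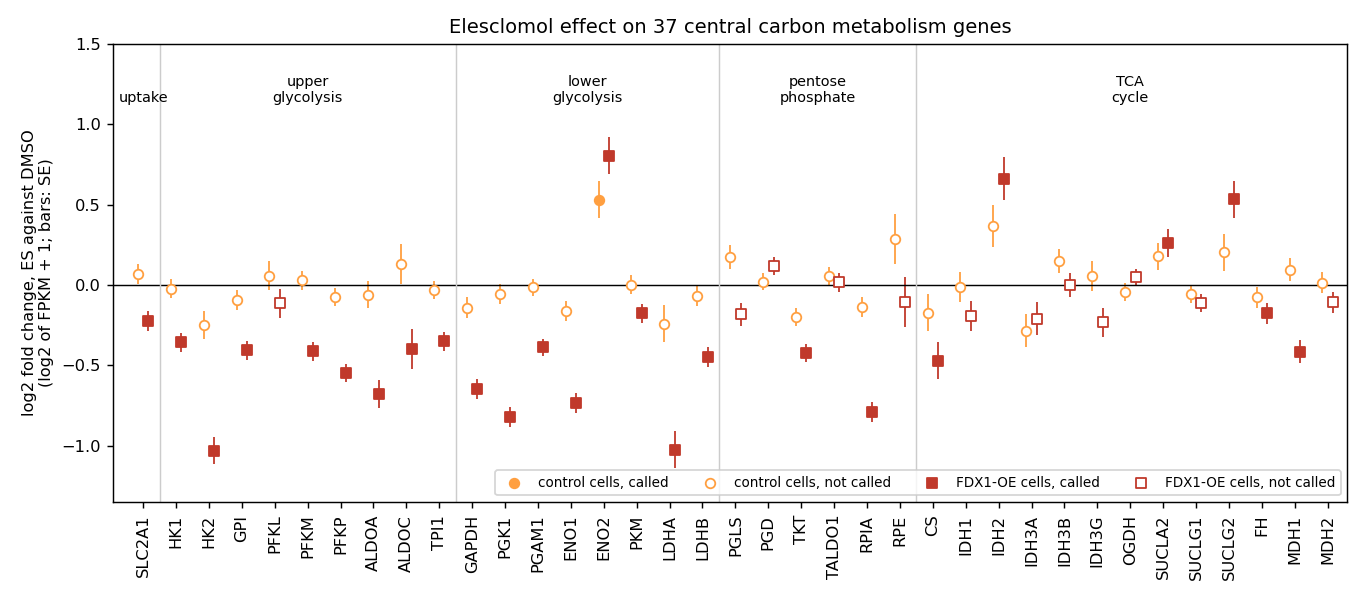
Log2 fold change of ES against DMSO (y axis, log2 of FPKM + 1, bars: standard error) for the 37 tested members along the x axis, with circles for control cells and squares for FDX1-OE cells, filled where the adjusted p is below 0.05. In FDX1-OE cells 21 squares are filled below 0 and 4 above, whereas for control cells ENO2 alone is filled.

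Fold changes below are differences of log2(FPKM + 1) with their standard error (SE), and percent changes compare group means of FPKM. SLC2A1, which encodes the glucose carrier GLUT1, measured 33.1 and 35.6 FPKM in the FDX1-OE DMSO libraries and 28.6 and 29.96 with ES. In control cells it measured 35.9 and 36.3 with DMSO and 37.97 and 37.89 with ES. It was thus lowest in the FDX1-OE ES pair, which overlapped no other group. SLC2A1 fell by 14.8% (log2 fold change −0.22, SE 0.06, adjusted p = 0.016). That call was lost without FDX1-OE DMSO replicate 2 (adjusted p = 0.129) and with libraries scaled to equal FPKM totals (log2 fold change −0.08, adjusted p = 0.275).

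In upper glycolysis the hexokinase HK2, which traps glucose as glucose 6-phosphate, moved most. Its level was 27.7 and 28.9 FPKM in control DMSO, 26.8 and 28.1 in FDX1-OE DMSO, 25.0 and 22.4 in control ES, and 13.7 and 12.2 in FDX1-OE ES. The FDX1-OE ES pair lay far below every other library. Its mean went from 27.4 ± 0.9 to 12.9 ± 1.11 FPKM (SD, n = 2). HK2 fell by 52.8% (log2 fold change −1.03, SE 0.08, adjusted p = 5.16e-05).

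ALDOA, the main aldolase, which cleaves fructose 1,6-bisphosphate, was at 738.3 and 628.9 FPKM in control DMSO and 714.6 and 766.2 in FDX1-OE DMSO. With ES it was at 675.8 and 632.6 FPKM in control cells and 447.2 and 478.0 in FDX1-OE cells. The FDX1-OE ES values were the lowest, and the control DMSO values overlapped those of both other groups. ALDOA fell by 37.5% in FDX1-OE cells (log2 fold change −0.68, SE 0.09, adjusted p = 0.000327).

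Phosphofructokinase, the committed step of glycolysis, is built from 3 kinds of subunit. PFKP measured 94.9 and 96.0 FPKM in control DMSO, 95.0 and 98.4 in FDX1-OE DMSO, 91.8 and 89.5 in control ES, and 64.3 and 67.5 in FDX1-OE ES. PFKM measured 42.9 and 42.7, 42.2 and 41.6, 43.2 and 44.2, and 30.7 and 31.8 FPKM in the same order. Both were lowest in the FDX1-OE ES pair. PFKM was level across the other groups, and PFKP was slightly lower in control ES than with DMSO. PFKP fell by 31.9% (log2 fold change −0.55, SE 0.06, adjusted p = 0.00013) and PFKM by 25.5% (log2 fold change −0.41, SE 0.06, adjusted p = 0.0005). The third subunit, PFKL, had 90.2 and 94.5 FPKM in FDX1-OE DMSO, and when the drug was present 77.1 and 94.3, so the FDX1-OE groups overlapped (log2 fold change −0.11, adjusted p = 0.296, and 0.03 with equal FPKM totals).

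The remaining upper-glycolysis members fell by smaller amounts. Hexokinase 1 (HK1) fell by 22.2%, the glucose 6-phosphate isomerase GPI by 24.7%, the minor aldolase ALDOC by 25.4% and the triosephosphate isomerase TPI1 by 21.6%. Their adjusted p-values were 0.00102, 0.000721, 0.0238 and 0.00114. The ALDOC call was lost without FDX1-OE DMSO replicate 2 or without FDX1-OE ES replicate 1 (largest adjusted p 0.132). Under quantile normalisation the TPI1 fold change was −0.06 (adjusted p = 0.358).

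Lower glycolysis held the most abundant members. GAPDH, which makes NADH, had the highest level of all members in every group. It stood at 3429 and 3464 FPKM in control DMSO, 3417 and 3588 in FDX1-OE DMSO, 3215 and 3041 in control ES, and 2163 and 2311 in FDX1-OE ES. The last pair lay below all others, and GAPDH fell by 36.1% in FDX1-OE cells (log2 fold change −0.65, SE 0.06, adjusted p = 0.000112). Under quantile normalisation the fold change was −0.21 (adjusted p = 0.106).

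LDHA, the lactate dehydrogenase subunit that favours lactate formation, was at 808.8 and 797.3 FPKM in control DMSO and 781.0 and 808.7 in FDX1-OE DMSO. With ES it was at 730.5 and 631.4 in control cells and 441.8 and 344.2 in FDX1-OE cells. Both ES groups lay below the DMSO groups and did not overlap each other. LDHA fell by 50.6% in FDX1-OE cells (log2 fold change −1.03, SE 0.11, adjusted p = 0.00018). Its partner subunit LDHB fell by 26.7% (log2 fold change −0.45, adjusted p = 0.000492), a direction that turned to 0.02 (adjusted p = 0.826) under quantile normalisation.

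PGK1, which makes the first ATP of the pathway, measured 86.5 and 87.2 FPKM in control DMSO, 88.5 and 93.6 in FDX1-OE DMSO, 85.3 and 81.8 in control ES, and 52.9 and 49.1 in FDX1-OE ES. It fell by 43.9% in FDX1-OE cells (log2 fold change −0.82, SE 0.06, adjusted p = 3.84e-05), with the FDX1-OE ES pair below every other library. ENO1, the main enolase, measured 906.3 and 923.8, 906.9 and 963.3, 857.3 and 781.4, and 554.5 and 567.9 FPKM in the same order. It fell by 40.0% (log2 fold change −0.73, SE 0.06, adjusted p = 6.49e-05), with a fold change of −0.33 (adjusted p = 0.0038) under quantile normalisation.

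ENO2, the enolase best known from neurons, went the other way. Its values were 11.4 and 10.6 FPKM in control DMSO, 12.0 and 12.8 in FDX1-OE DMSO, 15.5 and 17.2 in control ES, and 19.8 and 25.2 in FDX1-OE ES. The 4 groups did not overlap. ENO2 rose by 82.0% in FDX1-OE cells (log2 fold change 0.81, SE 0.11, adjusted p = 0.000546). The mutase PGAM1 fell by 23.6% (adjusted p = 0.000468). The pyruvate kinase PKM fell by 11.4% (log2 fold change −0.18, adjusted p = 0.0332), a call lost in 12 of 17 alternative analyses and turned to 0.13 (adjusted p = 0.0622) by quantile normalisation.

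**Figure D2:**
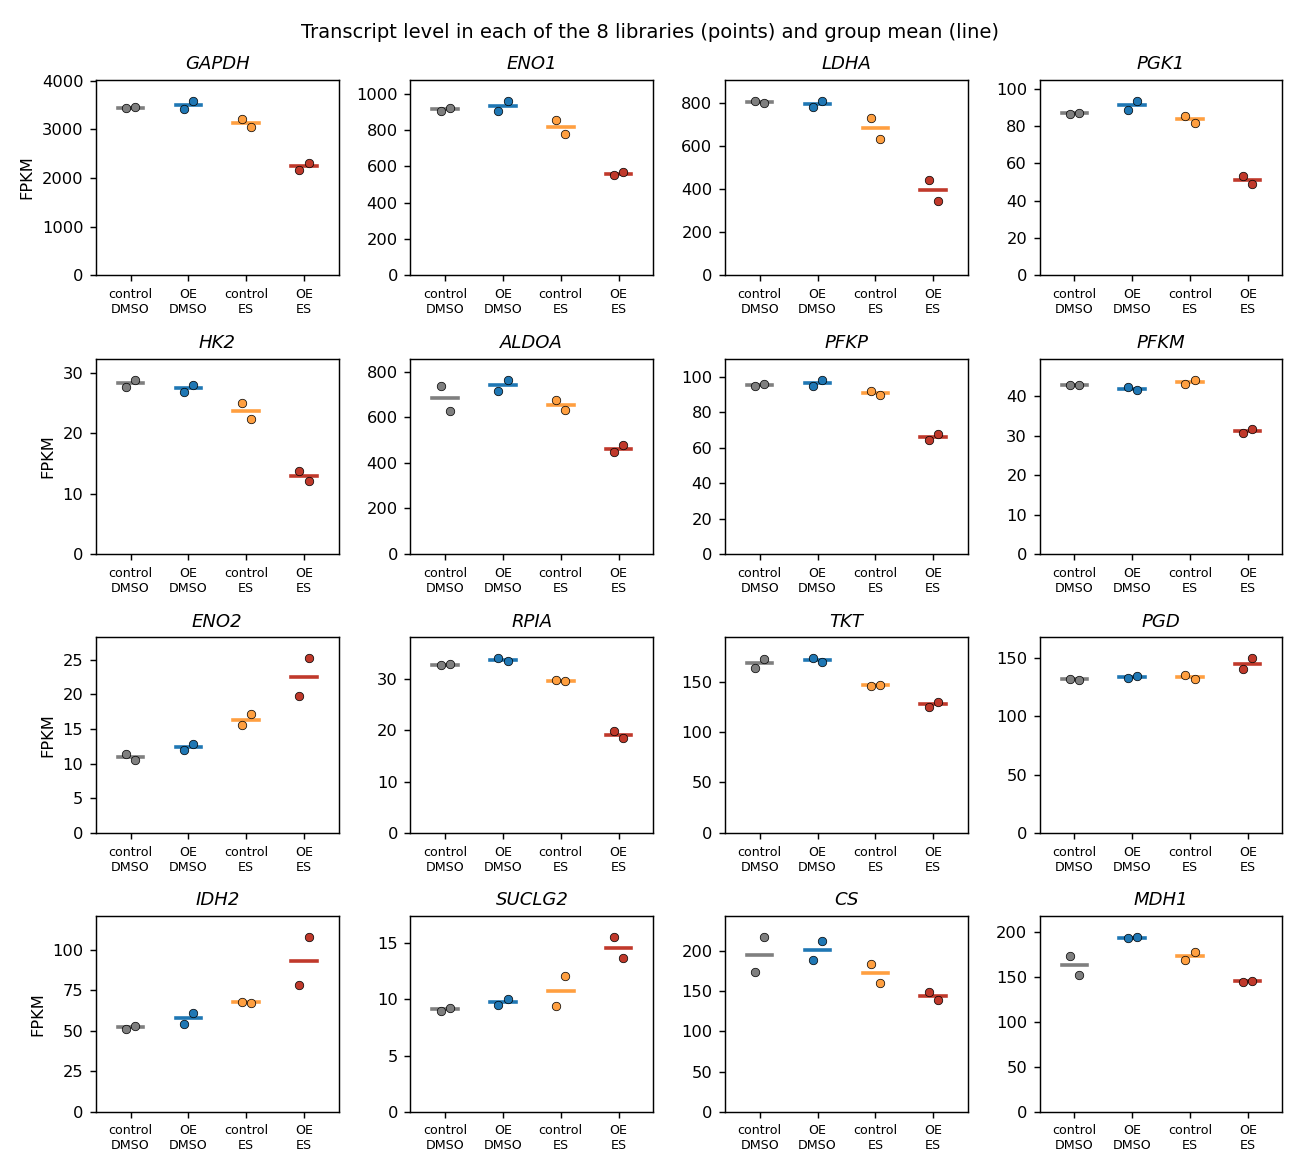
FPKM (y axis, linear, from 0) of 16 members in each of the 8 libraries (points) by group, with a line at the group mean. Most glycolytic panels are lowest in the FDX1-OE ES pair (HK2 27.4 to 12.9 FPKM, PGK1 and LDHA likewise), whereas ENO2, IDH2 and SUCLG2 are highest there. For HK2, LDHA, PGK1, ENO1, GAPDH and PFKP the control ES points also lie below every DMSO point, by a smaller margin.

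In the pentose phosphate pathway the largest fall was in RPIA, which makes ribose 5-phosphate. RPIA measured 32.7 and 32.8 FPKM in control DMSO, 34.0 and 33.5 in FDX1-OE DMSO, 29.8 and 29.6 in control ES, and 19.8 and 18.5 in FDX1-OE ES. Values within each pair were close, and the FDX1-OE ES pair was lowest by a wide margin. It fell by 43.3% (log2 fold change −0.79, SE 0.06, adjusted p = 4.49e-05). TKT, the transketolase that links the pathway to glycolysis, measured 164.0 and 172.5, 173.1 and 169.5, 145.8 and 146.6, and 124.9 and 130.3 FPKM in the same order. Both ES pairs were below both DMSO pairs, and TKT fell by 25.5% in FDX1-OE cells (log2 fold change −0.42, SE 0.06, adjusted p = 0.000379).

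Neither member of the oxidative branch passed the test. The lactonase PGLS measured 44.6 and 44.1 FPKM in FDX1-OE DMSO and 36.5 and 41.5 in FDX1-OE ES (log2 fold change −0.18, adjusted p = 0.0573). In control cells PGLS measured 39.1 and 41.3 with DMSO and 45.6 and 45.3 with ES. The NADPH-making dehydrogenase PGD measured 133.2 and 134.5 FPKM in FDX1-OE DMSO and 140.9 and 149.9 in FDX1-OE ES, against 132.2, 131.6, 135.3 and 132.6 in the 4 control libraries. The highest PGD levels were thus in the FDX1-OE ES pair (log2 fold change 0.12, adjusted p = 0.093), but the sign turned to −0.12 under median-ratio scaling. TALDO1 ranged from 127.2 to 138.3 FPKM over the 8 libraries (adjusted p = 0.812). RPE ranged from 20.1 to 34.7 FPKM, its highest value being FDX1-OE DMSO replicate 2 (adjusted p = 0.574).

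TCA cycle members moved in both directions. IDH2, the mitochondrial NADP-dependent isocitrate dehydrogenase, measured 51.3 and 53.1 FPKM in control DMSO, 54.3 and 61.2 in FDX1-OE DMSO, 67.8 and 67.4 in control ES, and 78.1 and 107.9 in FDX1-OE ES. All ES values exceeded all DMSO values, with a wide gap between the 2 FDX1-OE ES libraries. IDH2 rose by 61.0% in FDX1-OE cells (log2 fold change 0.66, SE 0.13, adjusted p = 0.00302).

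SUCLG2, the GDP-forming subunit of succinyl-CoA ligase, measured 9.0 and 9.26 FPKM in control DMSO, 9.5 and 10.0 in FDX1-OE DMSO, 9.43 and 12.1 in control ES, and 15.5 and 13.7 in FDX1-OE ES. The first 3 groups overlapped in part, and the FDX1-OE ES pair lay above them. It rose by 49.7% (log2 fold change 0.53, SE 0.11, adjusted p = 0.0043), with 0.28 (adjusted p = 0.0702) under quantile normalisation. The ADP-forming subunit SUCLA2 rose by 21.7% (log2 fold change 0.26, adjusted p = 0.0284), but less the median of all genes its fold change was 0.01. Its call was lost in 8 of 17 alternatives, among them leaving out either FDX1-OE DMSO replicate or FDX1-OE ES replicate 2.

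CS, the citrate synthase that opens the cycle, varied between the 2 libraries of most groups. It measured 173.3 and 217.1 FPKM in control DMSO, 189.3 and 211.9 in FDX1-OE DMSO, 184.0 and 160.7 in control ES, and 149.2 and 139.3 in FDX1-OE ES. The FDX1-OE pairs did not overlap, and CS fell by 28.1% (log2 fold change −0.47, SE 0.12, adjusted p = 0.00785). The adjusted p was 0.0594 without FDX1-OE DMSO replicate 2 and 0.0553 under quantile normalisation.

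MDH1, the cytosolic malate dehydrogenase of the malate-aspartate shuttle, measured 174.1 and 152.1 FPKM in control DMSO, 193.3 and 194.5 in FDX1-OE DMSO, 169.5 and 178.4 in control ES, and 144.8 and 145.7 in FDX1-OE ES. FDX1-OE cells had the highest MDH1 with DMSO and the lowest with ES. It fell by 25.1% (log2 fold change −0.41, SE 0.07, adjusted p = 0.00137). Fumarase (FH) fell by 11.6% (adjusted p = 0.0452), a call lost in 12 of 17 alternatives.

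The other 7 TCA members did not pass the test in FDX1-OE cells. They were the cytosolic dehydrogenase IDH1, the 3 subunits of the NAD-dependent enzyme (IDH3A, IDH3B, IDH3G), the 2-oxoglutarate dehydrogenase subunit OGDH, the shared succinyl-CoA ligase subunit SUCLG1 and the mitochondrial malate dehydrogenase MDH2. Their log2 fold changes ran from −0.23 for IDH3G (adjusted p = 0.0568) to 0.05 for OGDH (adjusted p = 0.481). IDH3A measured 20.6 and 20.2 FPKM in control DMSO and 12.6 to 16.9 FPKM in the other 6 libraries.

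Some reads may belong to neighbouring or copied genes. Exons of 21 of the 38 members overlap another annotated gene, and whether counting used strand is not given in the sources used here. The partners with the highest levels were SSR4 on the opposite strand of IDH3G, at 20.3 to 55.0 FPKM, AC093512.2 on the strand of ALDOA, at 28.05 to 98.5 FPKM. Rows named as pseudogenes existed for 18 members, 62 of them for GAPDH, and each stayed below 1% of its parent gene except for SLC2A3.

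The size of a fall depended on how libraries were scaled. The median of all genes in this comparison was 0.25 as deposited, 0.05 after median-ratio scaling, −0.01 after quantile normalisation and 0.37 with equal FPKM totals. Members called higher and lower numbered 4 and 21 as deposited, 3 and 31 after median-ratio scaling, 3 and 20 after quantile normalisation and 7 and 17 with equal totals. Over all genes, the higher genes made up 77.5%, 54.5%, 48.7% and 86.6% of the calls under these 4 scalings. HK2 stayed between −1.25 and −0.90, PGK1 between −1.06 and −0.68 and RPIA between −1.01 and −0.65 over every alternative tried. Relative to the median of all genes as deposited, HK2 stood at −1.28, LDHA at −1.27, PGK1 at −1.07, RPIA at −1.04, ENO2 at 0.56 and IDH2 at 0.41. Of the 25 called members, 19 kept their call in all 8 analyses that left out 1 library, and 15 kept it in all 17 alternatives.

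**Figure D3:**
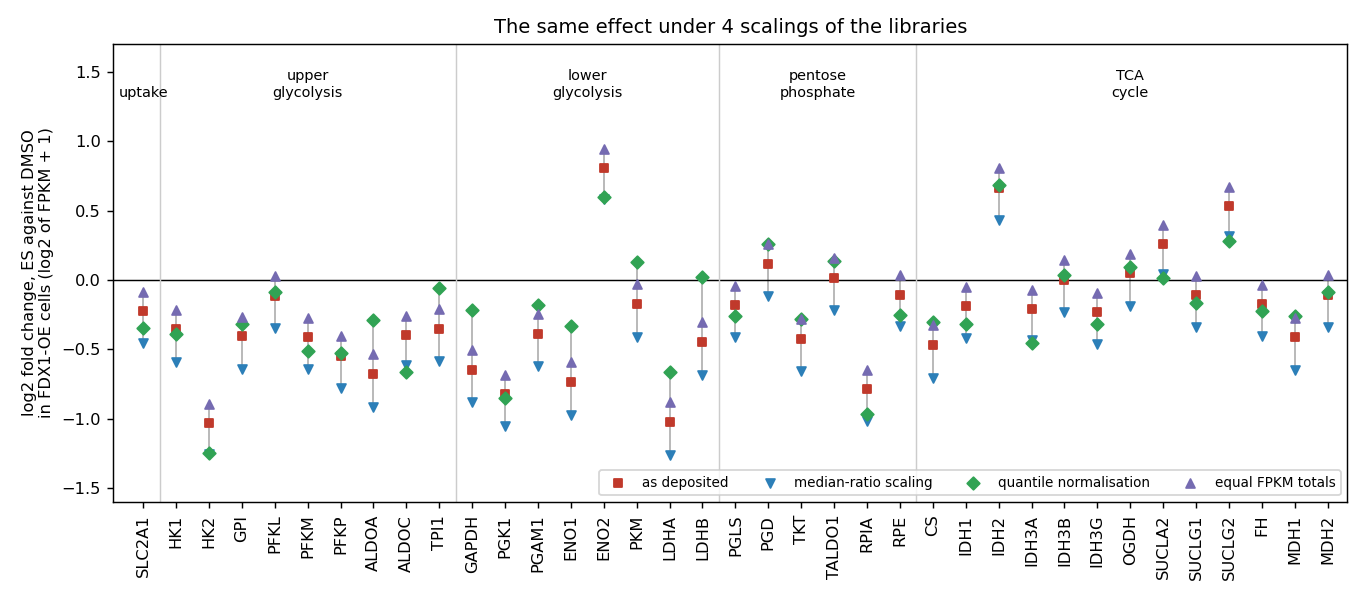
Log2 fold change of ES against DMSO in FDX1-OE cells (y axis, log2 of FPKM + 1) for the 37 tested members (x axis) under 4 scalings of the libraries, each with its own marker. HK2, PGK1, LDHA and RPIA stay below 0 and ENO2 and IDH2 above it in all 4, while PKM and LDHB cross 0 under quantile normalisation.

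Many abundant transcripts fell in these libraries. Among the 565 genes with a mean of 100 or more FPKM over the 8 libraries, 57.7% fell in FDX1-OE cells with ES, and their median log2 fold change was −0.28. In that band 12 of 15 members fell, with a median of −0.41. Among the 5258 genes between 10 and 100 FPKM, 18.9% fell and 41.1% rose, with a median of 0.15. In that band 9 of 22 members fell and 4 rose, with a median of −0.19. The part that abundance plays in the members' fall was not tested.

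Whether ES acted differently in FDX1-OE and control cells was tested with an interaction term, the ES effect in FDX1-OE cells minus that in control cells. It was below 0 for 16 of 37 members and above 0 for 0 at an adjusted p below 0.05 (limma, Benjamini-Hochberg), against 5.06% and 13.9% of all tested genes. The members' median difference was −0.30 and that of all genes 0.15. Of the 565 genes with a mean of 100 or more FPKM, 35.2% were below 0 and 5.31% above, with a median of −0.23. In that band 9 of 15 members were below 0 and 0 above, with a median of −0.32. Between 10 and 100 FPKM, 6.33% of genes were below 0 and 13.2% above, against 7 and 0 of 22 members. The part that abundance plays in these differences was not tested. The 16 comprised 7 of 9 members in upper glycolysis, 6 of 8 in lower glycolysis, 2 of 6 in the pentose phosphate pathway and 1 of 13 in the TCA cycle (MDH1). PGK1 had the smallest p (difference −0.77, SE 0.09, adjusted p = 0.00263), followed by RPIA (−0.65, SE 0.09, adjusted p = 0.00504) and HK2 (−0.78, SE 0.12, adjusted p = 0.00698). ENO1 (−0.57), PFKP (−0.47), GAPDH (−0.51), PFKM (−0.44) and ALDOA (−0.62) came next. Over all genes, positive differences were 73.4% of the calls as deposited and 44.2%, 49.0% and 89.6% under those other scalings, and the members called numbered 16, then 20, 10 and 11.

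The count of 16 changed when a library was left out. Among control libraries, leaving out DMSO replicate 1 gave 7, DMSO replicate 2 gave 8, ES replicate 1 gave 7 and ES replicate 2 gave 10. Among FDX1-OE libraries, leaving out DMSO replicate 1 gave 8, DMSO replicate 2 gave 4, ES replicate 1 gave 18 and ES replicate 2 gave 23. HK2, PGK1, ENO1 and RPIA kept their call in all 8 of these analyses. ENO1 lost it under quantile normalisation (−0.22, adjusted p = 0.149). GAPDH and LDHB turned to 0.03 and 0.05 under that normalisation. For ENO2, IDH2 and SUCLG2, the members that rose, the interaction did not pass the test (0.27, 0.29 and 0.33, and adjusted p-values of 0.254, 0.289 and 0.182).

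In control cells, ES against DMSO gave 1 call among the 37 members, against 6.74% of tested genes higher and 1.00% lower, 7.74% together. ENO2 rose from a mean of 11.0 to 16.4 FPKM (log2 fold change 0.53, SE 0.11, adjusted p = 0.0329). That call was lost when either DMSO replicate of either line or either control ES replicate was left out (largest adjusted p 0.218). No member was called lower by limma, with 7 of the 37 at an unadjusted p below 0.05 in either direction. The ES libraries lay wholly below the DMSO libraries for 13 members and wholly above for 12, against 17.1% and 48.2% of all tested genes. Without FDX1-OE ES replicate 1, and likewise without FDX1-OE ES replicate 2, 3 members were called higher and 4 lower. TKT came closest to the threshold among members with a negative fold change (−0.20, SE 0.06, adjusted p = 0.064). HK2 (−0.25, adjusted p = 0.106), IDH2 (0.37, adjusted p = 0.123) and ENO1 (−0.16, adjusted p = 0.153) had values on the same side of 0 as in FDX1-OE cells. PGK1 measured −0.06 (adjusted p = 0.6), PFKM 0.03 and PFKP −0.07. Over all genes, the higher genes were 87.0% of the calls as deposited, and 60.2%, 74.5% and 88.5% after median-ratio scaling, quantile normalisation and equal totals.

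With DMSO, FDX1-OE and control cells were compared to see whether FDX1 alone moves these genes. No member was called by limma in either direction (0 of 37, with 4 at an unadjusted p below 0.05), against 0.00829% of tested genes higher and 0% lower. The count stayed at 0 under all 17 alternatives. The members' median was 0.04 and that of all genes 0.00. The 4 members at an unadjusted p below 0.05 were MDH1, IDH3A, RPE and ALDOC, and for each of them the groups did not overlap. MDH1 was at 174.1 and 152.1 FPKM in control and 193.3 and 194.5 in FDX1-OE cells. IDH3A was at 20.6 and 20.2 against 16.1 and 16.9. RPE was at 20.1 and 20.9 against 23.1 and 34.7, and ALDOC at 10.7 and 14.0 against 14.7 and 16.3. FDX1-OE lay wholly above control for 16 members and wholly below for 4, against 19.5% of tested genes each way.

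With ES, FDX1-OE cells differed from control cells at 21 members. Of these, 18 were lower and 3 higher, against 10.4% and 31.1% of all tested genes, and the members' median was −0.22 against 0.16 over all genes. Of the 565 genes with a mean of 100 or more FPKM, 52.7% were lower and 7.79% higher, with a median of −0.25. In that band 10 of 15 members were lower and 0 higher, with a median of −0.30. Between 10 and 100 FPKM, 14.1% of genes were lower and 26.3% higher, against 8 and 3 of 22 members. The part that abundance plays here was not tested. This comparison shares its FDX1-OE ES libraries with the ES effect in FDX1-OE cells described above. HK2, with means of 23.7 FPKM in control and 12.9 in FDX1-OE cells, had a log2 difference of −0.83 (adjusted p = 0.000495). PGK1 had a log2 difference of −0.70 (adjusted p = 0.000297), LDHA of −0.80 (adjusted p = 0.00172), RPIA of −0.61 (adjusted p = 0.000518) and SLC2A1 of −0.36 (adjusted p = 0.00366). ENO2 (0.43), IDH2 (0.43) and SUCLG2 (0.42) were higher in FDX1-OE cells, and all 3 lost their call without control ES replicate 1. IDH2 also lost it when control ES replicate 2 or FDX1-OE ES replicate 2 was dropped, and SUCLG2 when FDX1-OE ES replicate 1 was. With median-ratio scaling 25 members were lower and 0 higher, and with equal totals 14 and 5. Under quantile normalisation GAPDH and LDHB turned to 0.08 and 0.01. Higher genes made up 75.0% of all calls as deposited, 51.1% after median-ratio scaling, 49.1% after quantile normalisation and 88.8% with equal totals.

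Several pairs of isoenzymes did not move in step. Ratios of FPKM within a library, which a linear scaling leaves as they are, are given here as a description with no test. HK2 stood to HK1 at 0.448 and 0.453 in control DMSO, 0.411 and 0.412 in FDX1-OE DMSO, 0.410 and 0.357 in control ES, and 0.268 and 0.231 in FDX1-OE ES. The ENO2 to ENO1 ratio was 0.0126 and 0.0115, 0.0132 and 0.0133, 0.0181 and 0.0220, and 0.0358 and 0.0444 in the same order. LDHB stood to LDHA at 0.898 and 0.902, 0.935 and 0.910, 0.943 and 1.09, and 1.28 and 1.48. In all 3 pairs the FDX1-OE ES libraries were at the extreme, and LDHB mRNA exceeded LDHA mRNA in both of them.

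Among phosphofructokinase subunits, the ratio of PFKP to PFKL fell from a mean of 1.05 ± 0.0085 in FDX1-OE DMSO to 0.774 ± 0.083 in FDX1-OE ES (SD, n = 2). The ratio of the cytosolic IDH1 to the mitochondrial IDH2 had means of 0.56 (control) and 0.532 (FDX1-OE) with DMSO, and of 0.429 and 0.301 with ES. Its 2 FDX1-OE ES values, 0.381 and 0.222, were far apart. SUCLG2 to SUCLA2 had means of 0.771, 0.798, 0.791 and 0.988, with 1.116 and 0.86 in the last pair. MDH1 to MDH2 ranged from 2.0 to 2.6 over the libraries, and ALDOC and SLC2A3 stayed below 3% and 1% of ALDOA and SLC2A1.

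**Figure D4:**
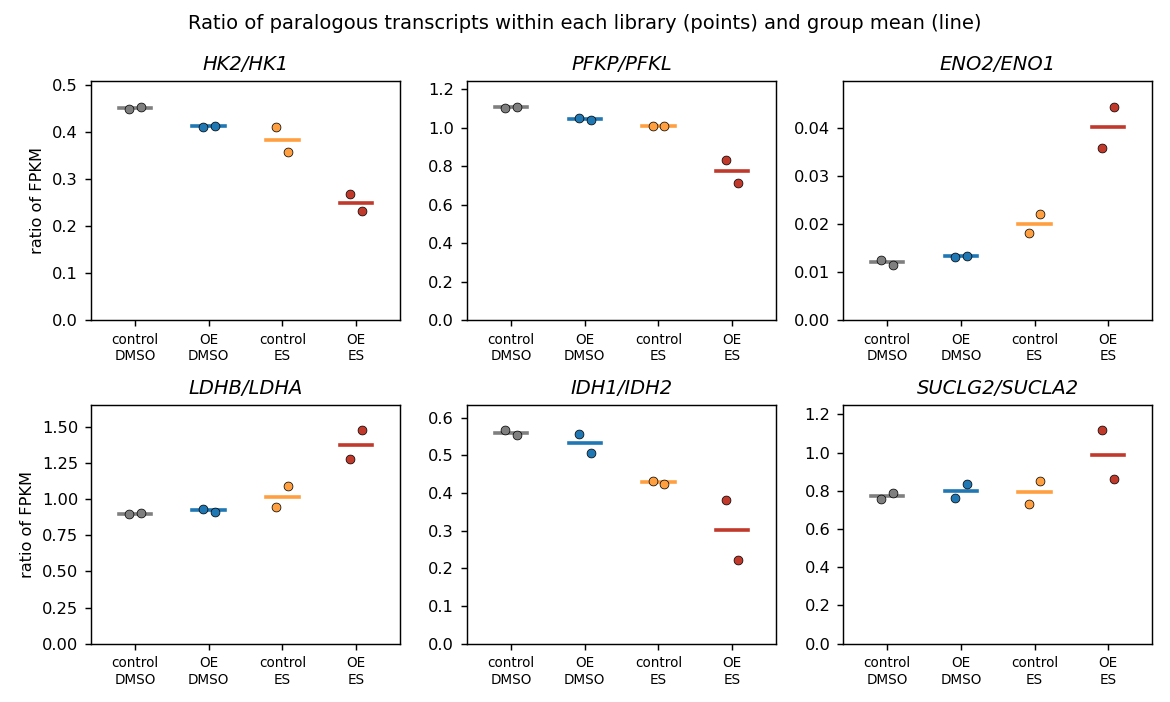
FPKM ratio of 6 isoenzyme or subunit pairs (y axis, linear, from 0) in each of the 8 libraries (points) by group, with a line at the group mean. The FDX1-OE ES points are lowest for HK2/HK1, PFKP/PFKL and IDH1/IDH2 and highest for ENO2/ENO1, LDHB/LDHA and SUCLG2/SUCLA2.

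As a share of all FPKM, the 38 members together made up 2.21% and 2.22% in control DMSO, 2.23% and 2.30% in FDX1-OE DMSO, 2.13% and 2.03% in control ES, and 1.72% and 1.79% in FDX1-OE ES. Leaving out mitochondrially encoded mRNA, the shares were 2.67% and 2.69%, 2.70% and 2.80%, 2.58% and 2.44%, and 2.01% and 2.03%. By share of all FPKM, the loss lay in glycolysis. Lower glycolysis made up 1.51% and 1.56% in FDX1-OE DMSO and 1.09% and 1.11% in FDX1-OE ES, and upper glycolysis 0.392% and 0.408% against 0.302% and 0.327%. The pentose phosphate members held 0.122% and 0.121% against 0.118% and 0.125%, and the TCA members 0.204% and 0.210% against 0.201% and 0.214%, so those pairs overlapped. Their summed FPKM, not divided by the library total, did fall without overlap. It went from 545.0 and 546.0 to 481.1 and 503.6 for pentose phosphate members, and from 907.7 and 945.9 to 818.5 and 863.1 for TCA members. The library totals were themselves lower in the FDX1-OE ES pair.

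**Figure D5:**
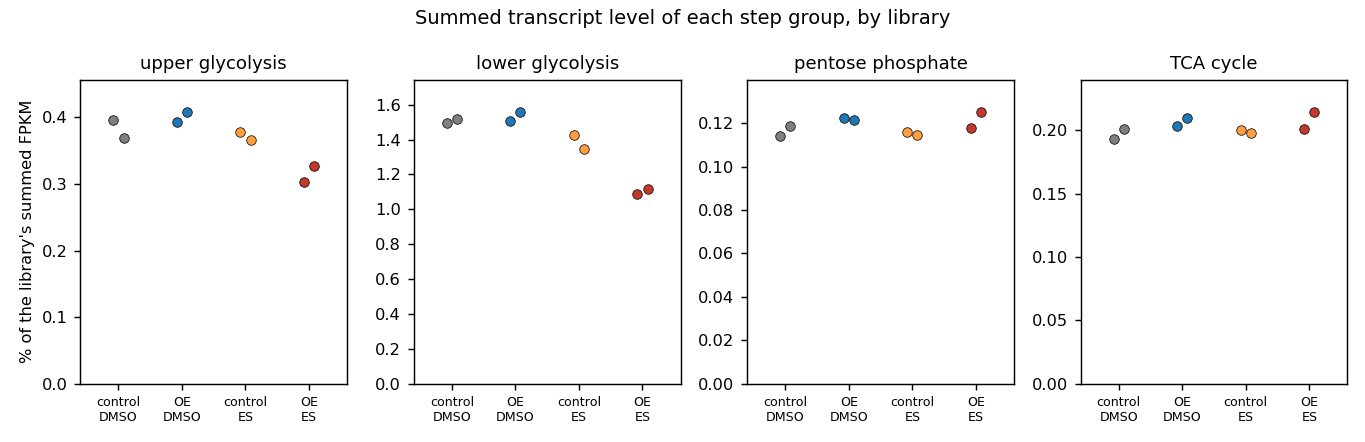
Summed FPKM of upper glycolysis, lower glycolysis, pentose phosphate and TCA cycle members as a percentage of each library's summed FPKM (y axis, from 0), by group. The FDX1-OE ES points are lowest for both glycolysis groups, at 1.09% and 1.11% for lower glycolysis, while for the TCA cycle they are 0.201% and 0.214%, the latter the highest of the 8 libraries.

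Other genes of these pathways, from lists drawn up by function, were counted in the same fit, in which 47.1% of all tested genes rose and 13.7% fell in FDX1-OE cells with ES. Of 8 tested isozymes and regulators of glycolysis, 4 rose and 0 fell, a rising share near that of all genes. They were the ADP-dependent glucokinase ADPGK (0.35), the bisphosphoglycerate mutase BPGM (0.34), the muscle enolase ENO3 (0.68) and the phosphoglucomutase PGM2 (0.24). ADPGK, BPGM and ENO3 averaged 9.54, 5.82 and 3.30 FPKM over the 8 libraries. Genes with a mean under 10 FPKM rose in 55.1% of cases, with a median log2 fold change of 0.38. Of 18 genes of lactate and pyruvate handling, 8 rose and 0 fell, again a rising share near that of all genes. The mitochondrial PEP carboxykinase PCK2 rose from 2.77 and 2.67 to 18.9 and 26.4 FPKM (log2 fold change 2.65, SE 0.15, adjusted p = 1.24e-05). In control cells PCK2 rose from 1.75 and 2.0 to 7.93 and 9.40 FPKM (1.75, adjusted p = 0.00149), and the interaction was 0.91 (adjusted p = 0.025). The alanine transaminase GPT2 (0.93), the pyruvate dehydrogenase kinase PDK2 (0.88), the lactate exporter SLC16A3 (0.87) and the mitochondrial pyruvate carrier subunits MPC1 (0.41) and MPC2 (0.48) also rose. PCK2, PDK2 and SLC16A3 were in the band under 10 FPKM too, with means of 8.98, 1.48 and 3.50 FPKM.

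H6PD, an enzyme of the pentose phosphate pathway in the endoplasmic reticulum, rose from 1.04 and 0.951 to 3.65 and 4.56 FPKM (log2 fold change 1.35, SE 0.12, adjusted p = 6.34e-05). H6PD was the only one of 4 such genes tested to be called, and its interaction was 1.00 (adjusted p = 0.00859). Of 16 other TCA and anaplerotic genes, 5 rose and 4 fell, against the 47.1% and 13.7% of all genes. ACO1 (0.94), the 2-oxoglutarate dehydrogenase subunit DLST (0.53) and the succinate dehydrogenase subunit SDHC (0.57) rose, and the dicarboxylate carrier SLC25A10 (−0.90), the aspartate transaminase GOT2 (−0.34) and the ATP citrate lyase ACLY (−0.27) fell. The level of ACO1 was low, with a mean of 1.58 FPKM.

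Of 7 tested regulators, MYC alone fell. MYC measured 112.8 and 106.8 FPKM in control DMSO, 109.1 and 116.5 in FDX1-OE DMSO, 89.7 and 76.1 in control ES, and 59.2 and 38.5 in FDX1-OE ES (in FDX1-OE cells log2 fold change −1.22, SE 0.17, adjusted p = 0.000518). TXNIP, which restrains glucose uptake, rose from 6.08 and 5.69 to 25.2 and 27.0 FPKM in FDX1-OE cells (1.98, adjusted p = 4.59e-06) and from 6.46 and 6.76 to 9.15 and 10.7 in control cells (0.52, adjusted p = 0.0199). HIF1A (0.43), NFE2L2 (0.26) and ARNT (0.20) rose in FDX1-OE cells. The part of MYC, TXNIP or HIF1A in the members' values was not tested.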

How the data were processed

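Total RNA from 8 WSU-DLCL2 libraries was sequenced by the submitters. Per the submitters' processing notes, the build was hg19 and the tools included HTSeq, HISAT2 and R 3.2.0, with no role or order given. The deposited files hold FPKM per gene made by the authors. The unit was read from the values, since no header names it, and strand handling is not given in the sources used here. Groups were taken from GEO's labels, and rows sharing a symbol (1059 of 60592) were kept apart.

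Log2(FPKM + 1) was modelled with limma 3.58.1 in R 4.3.3 for the 12063 genes that reached 1 FPKM in 2 or more of the 8 libraries, with 4 group means, a mean-variance trend and two-sided tests. There were 4 residual degrees of freedom. P-values were Benjamini-Hochberg adjusted over all tested genes in each of 5 comparisons, and a call is an adjusted p below 0.05. Replicate numbers were not used to pair the samples in the main fit. The members and lists were chosen with earlier results of these data known.

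Values in every library are given for up to 4 members a step group with the largest ES effect in FDX1-OE cells, for members called against their group's majority and for 8 members with the smallest interaction p. Non-members came from 5 functional lists, at most 6 per list by p. The other comparisons tried, 17 alternatives in all, changed the pseudocount, filter, scaling, spread model, block or libraries. Promoter windows were the 250 bases before RefSeq starts (GRCh38.p14).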

Additional observations from a re-analysis of the deposited data

Results flagged for a closer look

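For 16 members the ES effect in FDX1-OE cells differed from that in control cells by the interaction test (limma, adjusted p below 0.05), and each difference was negative. On the log2 scale, the differences in upper glycolysis were HK1 −0.33, HK2 −0.78, GPI −0.31, PFKM −0.44, PFKP −0.47, ALDOA −0.62 and TPI1 −0.32. In lower glycolysis they were GAPDH −0.51, PGK1 −0.77, PGAM1 −0.37, ENO1 −0.57, LDHA −0.78 and LDHB −0.38. PGLS (−0.36) and RPIA (−0.65) of the pentose phosphate pathway and MDH1 (−0.51) were the others. In HK2, PGK1 and RPIA the difference kept its call under all 16 alternatives run for it. In PGLS it was the weakest (adjusted p = 0.046). PGLS was not alone in being unsteady. In HK1, GPI, TPI1, PGAM1, LDHA, LDHB and PGLS the call was lost in most analyses that left out 1 library.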

How the results depend on the processing

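Having 2 libraries a group and an unknown read depth limits every value. For FDX1-OE against control with ES, the 3 members called higher became 0 without the filter, 0 with median-ratio scaling, 5 with equal FPKM totals, 0 when only the groups compared were fitted and 0 to 3 when 1 library was left out, and the 18 called lower became 11 with quantile normalisation. For ES in control cells, the 1 called higher became 0 without the filter or under median-ratio or quantile scaling, 3 when only the groups compared were fitted or with array weights, and 0 to 3 when 1 library was left out. The 0 called lower became 1 with median-ratio scaling, 2 with only the groups compared, 3 with array weights and 0 to 4 when 1 library was left out. For ES in FDX1-OE cells, the 4 called higher became 7 with equal totals. For the interaction, the 16 called lower became 8 without the filter, 10 with quantile normalisation and 4 to 23 when 1 library was left out, and the 0 called higher became 0 to 2. The cause of these shifts was not tested. An analysis of only the groups compared was not run for the interaction.

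Quantile normalisation turned GAPDH to 0.0773 and LDHB to 0.0105 for FDX1-OE against control with ES, PKM to 0.13 and LDHB to 0.0179 for ES in FDX1-OE cells, and GAPDH to 0.034 and LDHB to 0.052 for the interaction. Median-ratio scaling turned TALDO1 to −0.22, IDH3B to −0.23 and OGDH to −0.19 for ES in FDX1-OE cells, each then called lower.

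Libraries with the same replicate number showed little shared deviation between groups (correlations from −0.05 to 0.08). Such correlations cannot tell whether the samples were prepared in pairs. With the replicate block, ES in FDX1-OE cells gave 4 members higher and 21 lower, and the interaction gave 15 lower. Over all genes, ES in control cells gave 813 higher and 121 lower calls, 627 and 78 with the replicate block, 48 and 10 without the filter, 465 and 307 after median-ratio scaling, 172 and 59 after quantile normalisation, 1293 and 361 with only the groups compared, 2062 and 461 with array weights, and 23 to 1776 and 5 to 466 when 1 library was left out. The interaction gave 1681 and 610, 1029 and 310 without the filter, 802 and 1011 after median-ratio scaling, 686 and 714 after quantile normalisation, 3466 and 402 with equal totals, and 364 to 2193 and 175 to 1067 when 1 library was left out. For FDX1-OE against control with ES, 3757 and 1251 became 2078 and 1991, 1723 and 1788, and 5867 and 739 under those 3 scalings, 2465 and 780 with only the groups compared, 2174 and 852 with array weights, and 1794 to 3432 and 717 to 1517 when 1 library was left out. For ES in FDX1-OE cells, 5682 and 1652 became 3450 and 2880, 2783 and 2937, and 7063 and 1093.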
